A study of Mus musculus with 12 samples.

Results

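Testes in which the Sox3 gene was replaced by Sox2 were compared with testes that lacked Sox3, to describe what differed when another SoxB1 gene stood at the locus rather than none. The members were all arrays with these genotype labels, 6 of the 12 of the series, made up of 3 Sox3-Sox2KI testes (KI) and 3 Sox3-KO testes (KO). All mice were C57BL/6N, untreated and 2 weeks old, both alleles were made with CRISPR/Cas9, and RNA of 1 whole testis was hybridized to each Affymetrix whole-transcript array. The other 6 arrays were wild-type (WT) testes of the same age, of which WT 1, WT 2 and WT 3 were littermates of KI mice and WT 4, WT 5 and WT 6 littermates of KO mice. The mutants therefore differed in litter origin as well as in genotype. The labels give neither the number of litters nor the extent of the deletion or of the inserted sequence, and they call the replicates biological, so p-values measure the spread between these testes.

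SoxB1 proteins (SOX1, SOX2 and SOX3) are closely related transcription factors that bind similar DNA sequences and are best known for holding stem and progenitor cells of the embryo and nervous system in an undifferentiated state. Sox3 lies on the X chromosome, so a male carries a single copy. In the testis Sox3 is known from committed progenitor spermatogonia, which arise from stem-enriched spermatogonia bearing the GDNF receptor and later become KIT-positive differentiating spermatogonia under retinoic acid. In the first wave of spermatogenesis of a young mouse the most advanced germ cells have entered meiotic prophase, and no sperm are yet formed.

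Values are log2 levels, so a difference of 1 is a change of 2-fold. A level below 5.33, the 95th percentile of 1105 olfactory receptor genes that are silent in most tissues, is called dim. The median gene was at 6.27. Markers of the labelled tissue were high in all 12 arrays, with Dazl of germ cells at 11.52 to 12.19 and Clu of Sertoli cells at 11.71 to 11.91. Levels are relative within an array, and in whole testis fewer cells of a type and less RNA per cell cannot be told apart. KO 2 stood nearer to the KI and WT arrays than KO 1 and KO 3 for genes of meiotic germ cells, and KO 3 carried high interferon-induced GTPase signals, with a mean of 6.30 over 14 such genes against 4.94 to 5.39 in the other 11 arrays. The part of either in the results was not tested, and counts of the gene lists that moved most are also given without these arrays.

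Sox3 itself was checked first. Its level was 6.57 in KO 1, 6.596 in KO 2 and 6.65 in KO 3. In the KI group it was 7.26 in the array labelled KI 1, 6.75 in KI 2 and 6.95 in KI 3. The KI and KO arrays did not overlap, and the array labelled KI 1 was among the WT arrays (7.21 to 7.36), so the level of the replaced gene did not set this array apart from WT. The KI minus KO difference was 0.38 (95% interval 0.15 to 0.61, limma adjusted p = 0.148). By an exact permutation test (two-sided) p = 0.1, which no split of 3 against 3 arrays, of 20 in all, can go below. Without the array labelled KI 1 the difference was 0.24. Probe positions were not used here, so the signal cannot be assigned to a part of either allele.

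Sox2 was dim in every array. It was 4.12, 4.02 and 4.22 in KO 1 to KO 3 and 4.51, 4.31 and 4.16 in KI 1 to KI 3. The groups overlapped, since KI 3 lay below KO 3, and the difference of 0.21 did not pass (limma adjusted p = 0.406, exact permutation p = 0.2, with 0.1 the smallest possible). Taking each mutant against its own WT littermates turned the Sox2 difference to -0.10, because WT littermates of KI had 4.15 to 4.22 and those of KO 3.81 to 3.94. Sox1, the remaining SoxB1 gene, was near the dim limit in both, with a difference of 0.03 (limma adjusted p = 0.903, exact permutation p = 0.7). Its level ran from 4.96 to 5.36 in the KO arrays and from 5.05 to 5.29 in the KI arrays.

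**Figure D1:**
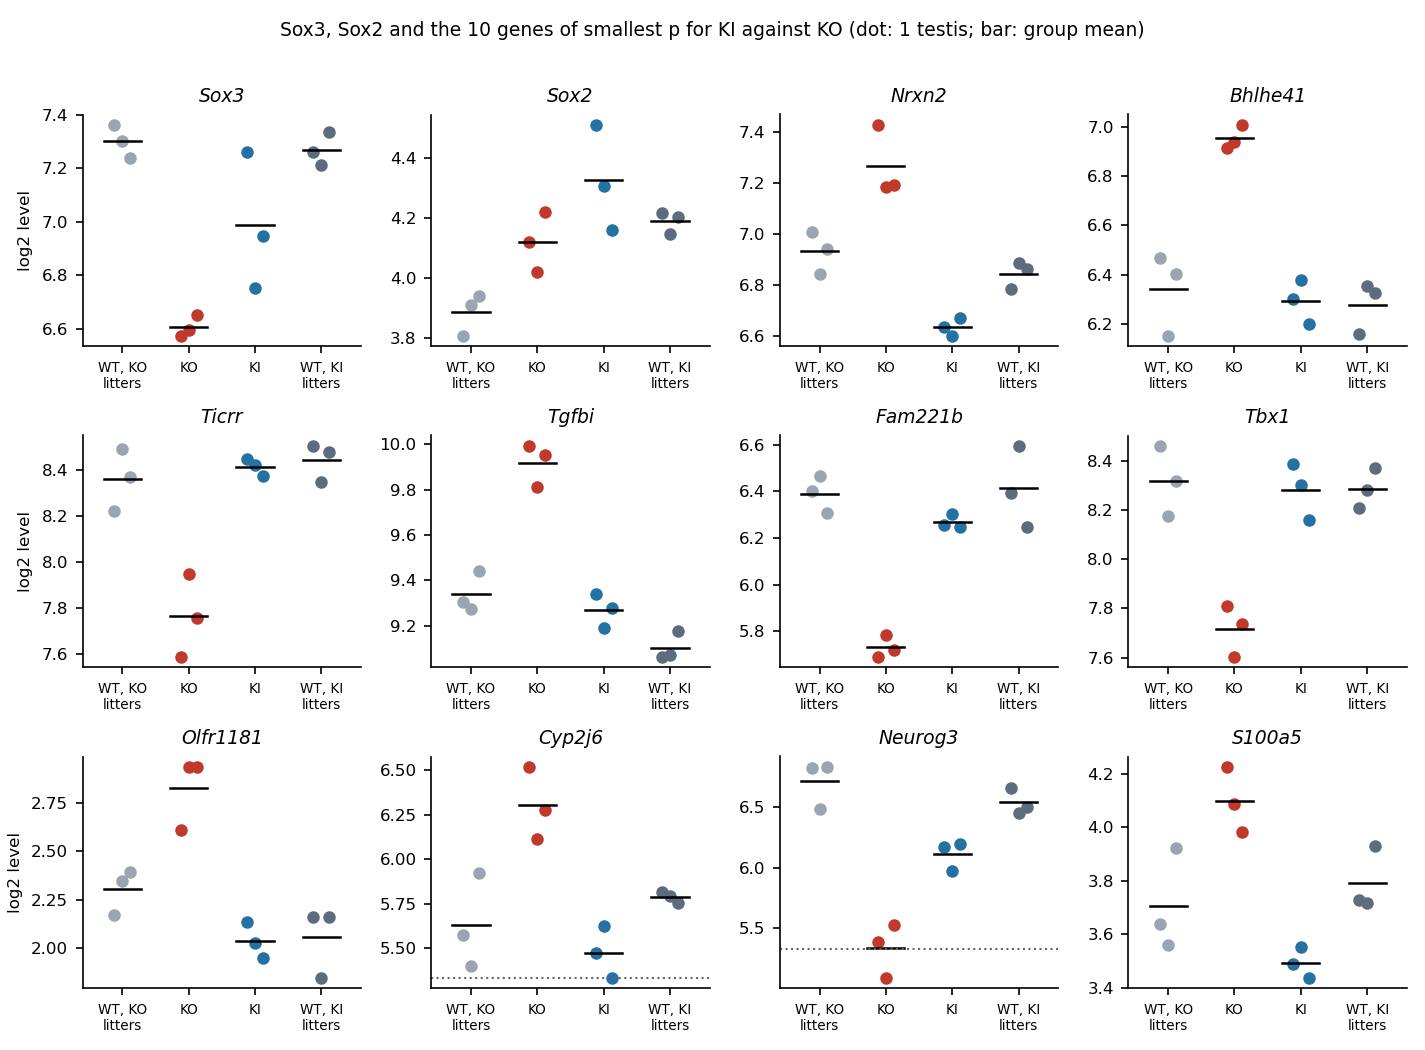
Log2 levels of Sox3, Sox2 and the 10 genes of smallest p for KI against KO, by genotype and litter origin; each dot is 1 testis, the bar is the mean of 3, and the dotted line is the dim limit of 5.33 where it falls in the panel (the vertical scales differ). In the 10 genes of smallest p the 3 KI dots lie on 1 side of the 3 KO dots, while for Sox2 the groups overlap.

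No gene differed between KI and KO testes at an adjusted p of 0.05 with limma over 22180 genes (0% called, smallest adjusted p 0.130). At an unadjusted p below 0.05, 1589 genes (7.16%) were higher and 2404 (10.8%) lower in KI testes. With each array centred on its median that split turned to 1959 higher and 1813 lower, so the excess of lower genes depended on the scaling. Without KO 3 it was 1274 higher and 1434 lower. The 3 KI arrays lay above the 3 KO arrays for 2121 genes (9.56%) and below them for 2785 (12.6%). The median difference was -0.05, and the median 95% interval reached 0.26 to either side, which is the precision that 3 arrays a group gave.

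The 10 genes of smallest p, taken by rule, ran from adjusted p = 0.130 to 0.133. Neurog3, a transcription factor that marks committed progenitor spermatogonia, was 5.39, 5.09 and 5.53 in the KO arrays and 6.17, 5.97 and 6.19 in the KI arrays. Every KI array was above every KO array and below every WT array (6.45 to 6.83). The difference was 0.78 (95% interval 0.48 to 1.07), a 1.71-fold higher level. KO 2 lay below the dim limit and KO 1 next to it, so the KO level is little above background.

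Ticrr, which helps to start DNA replication, was 7.59, 7.95 and 7.76 in KO and 8.45, 8.42 and 8.37 in KI arrays, a difference of 0.65 (95% interval 0.43 to 0.87). Tbx1, a T-box transcription factor, was 7.81, 7.60 and 7.74 in KO and 8.39, 8.30 and 8.16 in KI arrays, a difference of 0.57 (95% interval 0.36 to 0.77). Fam221b was 5.69, 5.78 and 5.72 in KO and 6.26, 6.30 and 6.25 in KI arrays, a difference of 0.54 (95% interval 0.35 to 0.73). For these 3 genes KO arrays were the low ones, and KI levels were inside or next to the WT ranges of 8.22 to 8.51, 8.17 to 8.46 and 6.25 to 6.59.

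The other 6 were lower in KI. Tgfbi, a secreted matrix protein induced by TGF-beta, was 9.99, 9.81 and 9.95 in KO and 9.34, 9.19 and 9.28 in KI arrays, a difference of -0.65 (95% interval -0.87 to -0.43). Bhlhe41, a transcriptional repressor of the circadian clock, was 6.91, 6.94 and 7.01 in KO and 6.30, 6.38 and 6.20 in KI arrays, a difference of -0.66 (95% interval -0.86 to -0.45). KO arrays were the high ones for both genes, and KI levels lay inside the WT ranges of 9.06 to 9.44 and 6.15 to 6.47. Nrxn2, a neurexin of nerve cell contacts, was 7.43, 7.18 and 7.19 in KO and 6.63, 6.601 and 6.67 in KI arrays, a difference of -0.63 (95% interval -0.82 to -0.45). Here the WT arrays (6.78 to 7.01) lay between the mutants. Cyp2j6, a cytochrome P450, was 6.52, 6.11 and 6.28 in KO and 5.47, 5.62 and 5.33 in KI arrays, a difference of -0.83 (95% interval -1.13 to -0.52). Olfr1181, an olfactory receptor, and S100a5, a calcium-binding protein, were dim in all 12 arrays, with differences of -0.79 and -0.60. The KI and KO arrays did not overlap for any of the 10, so leaving out 1 of them could not turn a direction. The size of the difference then ran for Neurog3 from 0.65 to 0.87 and for Bhlhe41 from -0.70 to -0.61.

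A 300-base promoter of RefSeq (GRCm38.p6, 250 bases before to 50 after the start) was found for 9 of these 10 genes. The SOX-type letters ACAAAG and ACAATG were searched on both strands, and a stretch of 6 letters can match only one of them. They were present in the promoters of 3 of the 9 genes, against 28.6% of 32851 mouse promoters of that length. The 3 are shown because they are the only ones of these 9 with such letters. Nrxn2 had no promoter entry and was not searched. The capitals mark the match, read on the other strand as ACAAAG. It starts 179 bases before the start of Neurog3 (chr10:62132840-62133139, plus strand), 156 bases before that of Tgfbi (chr13:56609336-56609635, plus strand) and 16 bases after that of Cyp2j6 (chr4:96553602-96553901, minus strand). A match of letters is a description and shows no binding.
Neurog3: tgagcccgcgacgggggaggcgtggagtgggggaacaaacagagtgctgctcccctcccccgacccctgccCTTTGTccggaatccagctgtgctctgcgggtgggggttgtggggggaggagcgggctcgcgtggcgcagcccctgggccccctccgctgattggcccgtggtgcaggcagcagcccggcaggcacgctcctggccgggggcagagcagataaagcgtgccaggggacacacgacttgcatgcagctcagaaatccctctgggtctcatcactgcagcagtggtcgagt
Tgfbi: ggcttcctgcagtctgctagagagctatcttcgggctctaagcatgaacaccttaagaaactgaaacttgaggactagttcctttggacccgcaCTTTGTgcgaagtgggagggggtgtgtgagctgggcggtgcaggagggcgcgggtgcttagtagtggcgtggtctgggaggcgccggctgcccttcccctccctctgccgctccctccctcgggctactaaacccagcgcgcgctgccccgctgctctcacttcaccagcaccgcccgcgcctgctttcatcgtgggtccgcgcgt
Cyp2j6: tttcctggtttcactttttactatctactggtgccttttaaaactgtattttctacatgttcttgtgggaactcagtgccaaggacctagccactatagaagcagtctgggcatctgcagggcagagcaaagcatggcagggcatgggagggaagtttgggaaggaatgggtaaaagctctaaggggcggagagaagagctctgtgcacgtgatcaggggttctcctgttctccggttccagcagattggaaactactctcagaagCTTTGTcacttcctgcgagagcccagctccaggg
Of the genes that carry the letters, Neurog3 was higher and Tgfbi and Cyp2j6 lower in KI testes.

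The limma fit was repeated on the 11090 genes above the median level alone, with the spread estimated and p adjusted over these genes. In this fit 57 genes (0.514%) differed at adjusted p below 0.05, 30 higher and 27 lower in KI. With arrays centred the count was 132, with 100 higher and 32 lower. All 57 had non-overlapping KI and KO arrays, as had 4906 of all 22180 genes. A small p favours such genes, so this is no separate support. This count rested on single arrays: it was 0 without KO 1, KO 3, the array labelled KI 1, KI 2, KI 3 or WT 3, between 4 and 6 without WT 1, WT 2, WT 4 or WT 5, 97 without WT 6, and 1637 without KO 2. It was also 0 in a fit of the 6 mutant arrays alone and 164 in a fit of the 4 label groups. Over all 22180 genes, leaving out KO 2 gave 721 genes (3.25%), 342 higher and 379 lower, which included 52 of the 57. Without the array labelled KI 1, 1 gene passed over all genes, the dim Nlrp9c (adjusted p = 0.0284).

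**Figure D2:**
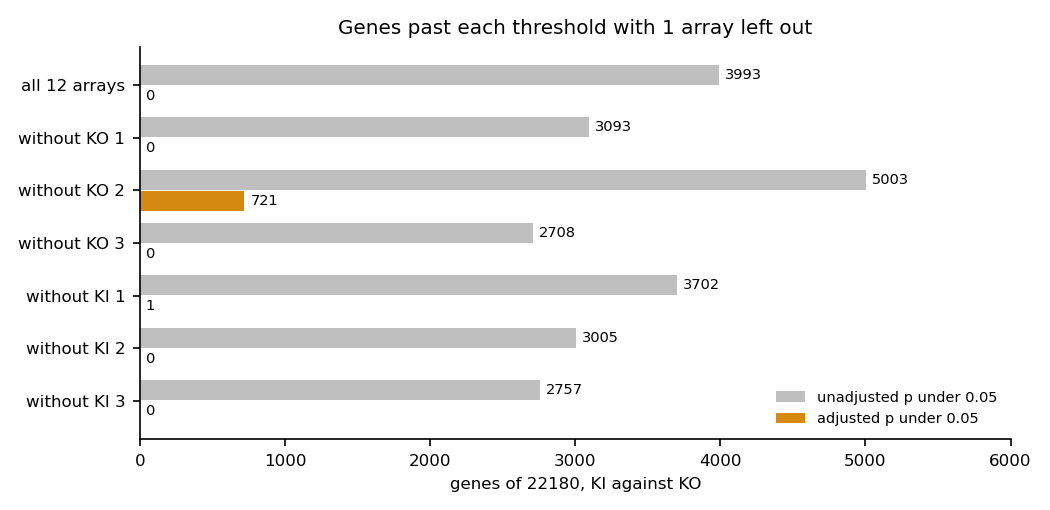
Number of genes of 22180 past an unadjusted p of 0.05 (grey bars) and an adjusted p of 0.05 (orange bars) for KI against KO, with all 12 arrays and with 1 mutant array left out. Only without KO 2 does a large number pass after adjustment, 721 genes, and the unadjusted counts run from 2708 to 5003.

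**Figure D3:**
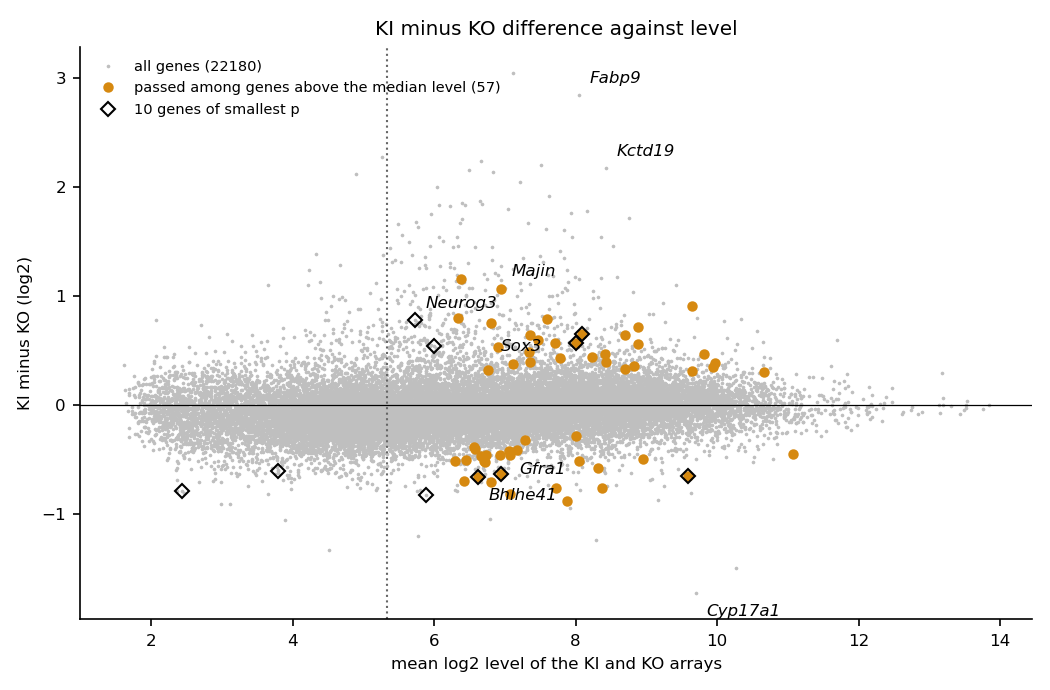
KI minus KO difference (log2) of 22180 genes against the mean log2 level of the 6 mutant arrays; orange dots are the 57 genes that passed among genes above the median level, diamonds are the 10 genes of smallest p, and the dotted line is the dim limit of 5.33. Fabp9, at 2.84, is not among the orange dots.

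The gene lists were chosen with earlier results of these data known, so their shares are descriptions and no independent test. The genes of the early meiotic prophase, which build the synaptonemal complex and carry out recombination, were the list with the greatest share at an unadjusted p below 0.05. Of 37 measured, 30 (81.1%, against 7.16% of all genes) were higher in KI at an unadjusted p below 0.05 and 0 were lower. None passed over all genes with limma, and 21 passed without KO 2. For 17 (45.9%, against 9.56% of all genes) the KI arrays all lay above the KO arrays. The list's median difference was 0.50, against -0.05 over all genes. Without KO 2 the median was 0.66, without KO 3 it was 0.47 with 26 genes higher at an unadjusted p below 0.05, and without the array labelled KI 1 it was 0.59. The mean level of the list was 7.42, 8.01 and 7.47 in KO 1 to KO 3, 8.03, 8.29 and 8.35 in KI 1 to KI 3, and 8.19 to 8.48 in WT arrays. The gap between KO 2 and the array labelled KI 1 was small, and the other mutant arrays were well apart.

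Spo11, the enzyme that makes the DNA breaks of meiosis, was 5.83, 6.99 and 6.08 in KO and 7.23, 7.74 and 7.76 in KI arrays, a difference of 1.27 (95% interval 0.63 to 1.92, limma adjusted p = 0.133). Majin, which ties telomeres to the nuclear envelope, was 6.26, 6.88 and 6.10 in KO and 7.18, 7.49 and 7.76 in KI arrays, a difference of 1.06 (95% interval 0.60 to 1.53). Meiob, a single-strand DNA binding protein of recombination, was 6.45, 8.05 and 5.83 in KO and 7.88, 8.67 and 8.62 in KI arrays, a difference of 1.61 (95% interval 0.64 to 2.59). KO 2 lay above the array labelled KI 1 for Meiob, so its groups overlapped, and for Spo11 and Majin they did not. Sycp2 and Sycp1, components of the synaptonemal complex and the list's genes of highest level, differed by 0.78 (95% interval 0.29 to 1.28) and 0.56 (95% interval 0.15 to 0.96), and in both KO 2 lay above the array labelled KI 1. Msh4 and Hfm1, which act in crossover formation, differed by 1.07 and 0.93 with no overlap. Majin and Iho1, a chromosome axis protein needed for break formation (difference 0.56), were the members among the 57 genes.

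Genes of pachytene and later meiosis spread more widely. This list holds Fabp9, Kctd19 and Cers3, which were among the genes with the largest differences in these same arrays. Of 30 measured, 18 (60.0%, against 7.16% of all genes) were higher and 1 lower at an unadjusted p below 0.05, 16 lay apart upward (9.56% of all genes did), and the median difference was 0.64 (0.83 without KO 2, 0.61 without KO 3 with 10 genes higher, and 0.80 without the array labelled KI 1). The list mean was 6.33, 7.04 and 6.37 in KO, 7.16, 7.55 and 7.41 in KI and from 6.91 to 7.87 in WT arrays. WT 6 and WT 4, both littermates of KO mice, were the lowest WT arrays at 6.91 and 7.14, so that the WT littermates themselves spread over the range of the KI group and reached the level of KO 2. Fabp9, a fatty acid binding protein of male germ cells, was 5.69, 8.59 and 5.60 in KO and 9.11, 9.71 and 9.59 in KI arrays, a difference of 2.84 (95% interval 1.01 to 4.67, limma adjusted p = 0.153). Its KO arrays were split, with KO 2 above the lowest WT array (7.85) and the other 2 below it. Kctd19, needed for meiosis in male mice, was 6.83, 8.93 and 6.29 in KO and 9.003, 9.90 and 9.65 in KI arrays, a difference of 2.17 (95% interval 0.81 to 3.53). Ybx2, an RNA-binding protein of germ cells, was 6.51, 7.84 and 7.12 in KO and 8.18, 8.75 and 8.59 in KI arrays, a difference of 1.35 (95% interval 0.54 to 2.15). In each of these genes KO 2 was the highest KO array and the array labelled KI 1 the lowest KI array. Hspa2, a heat shock protein of spermatocytes, and Taf7l, a transcription factor subunit of the germ line, were the list's genes of highest level and differed by 0.94 (95% interval 0.21 to 1.66) and 0.14 (95% interval -0.09 to 0.36).

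Of 15 genes of differentiating spermatogonia and meiotic entry, 9 (60.0%, against 7.16% of all genes) were higher and 0 lower at an unadjusted p below 0.05, with a median of 0.24. Without KO 3, 7 were higher, and without KO 2, 10 were higher and 2 lower. Kit, the receptor that marks differentiating spermatogonia, was 9.40, 9.43 and 9.40 in KO and 9.71, 9.53 and 9.61 in KI arrays, a difference of 0.21 (95% interval 0.04 to 0.37, limma adjusted p = 0.198). The KI and KO arrays of Kit did not overlap. Meioc, which is needed to keep meiotic germ cells in prophase, was 8.59, 9.29 and 8.79 in KO and 9.49, 9.71 and 9.76 in KI arrays, a difference of 0.76 (95% interval 0.36 to 1.17). Prss50, a serine protease of the testis and 1 of the 57 genes, was 8.18, 8.89 and 8.49 in KO and 9.09, 9.28 and 9.34 in KI arrays, a difference of 0.72. Stra8, the gene switched on by retinoic acid at meiotic entry, had a difference of 0.24 (95% interval -0.01 to 0.50), and its KI 2 array lay below KO 2. Tex15, like Kit among the list's 2 genes of highest level, differed by 0.15 (95% interval -0.11 to 0.40), and its groups overlapped.

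Cell division genes formed a narrow group, with 16 of 27 higher (59.3%, against 7.16% of all genes), 0 lower at an unadjusted p below 0.05 and 17 apart upward (9.56% of all genes were). Without KO 3, 12 were higher, and without KO 2, 14. The list mean was 8.67, 8.79 and 8.74 in KO, 8.95, 8.91 and 8.95 in KI and 8.94 to 9.01 in WT arrays, so that all KI arrays lay above all KO arrays. Top2a, the topoisomerase of chromosome condensation and 1 of the 57 genes, was 9.51, 9.71 and 9.51 in KO and 10.03, 10.02 and 10.10 in KI arrays, a difference of 0.47 (95% interval 0.27 to 0.67). Mki67, a marker of dividing cells, was 9.82, 10.02 and 9.99 in KO and 10.25, 10.18 and 10.25 in KI arrays, a difference of 0.29 (95% interval 0.13 to 0.45). Pcna, like Mki67 among the list's 2 genes of highest level, differed by 0.12 (95% interval -0.04 to 0.28). The sizes were small beside those of meiotic genes, and the list's median was 0.22.

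Genes of the germ line as a whole and of the piRNA pathway, which silences transposons in germ cells, were higher at an unadjusted p below 0.05 for 15 of 27 (55.6%, against 7.16% of all genes) and lower for 1, with a median of 0.35. Without KO 3, 10 were higher, and without KO 2, 18. Dazl, an RNA-binding protein of germ cells and the highest of them, was 11.52, 11.90 and 11.65 in KO and 11.93, 12.04 and 11.95 in KI arrays, a difference of 0.28 (95% interval 0.07 to 0.50). Mov10l1, an RNA helicase of the piRNA pathway, was 10.06, 10.65 and 10.38 in KO and 10.81, 11.16 and 10.87 in KI arrays, a difference of 0.58 (95% interval 0.17 to 0.98). Neither overlapped, and KO 2 was the highest KO array in both. Spermatid genes, whose cells are not expected at this age, had a median of 0.04, with 2 of 21 higher (9.52%, against 7.16% of all genes) and 1 lower. Odf1 and Odf2, that list's 2 genes of highest level, differed by -0.30 (95% interval -0.50 to -0.09) and 0.41 (95% interval 0.02 to 0.80). Odf1 was at 10.56 to 11.14 in the 12 arrays, and which cells gave this signal was not tested.

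**Figure D4:**
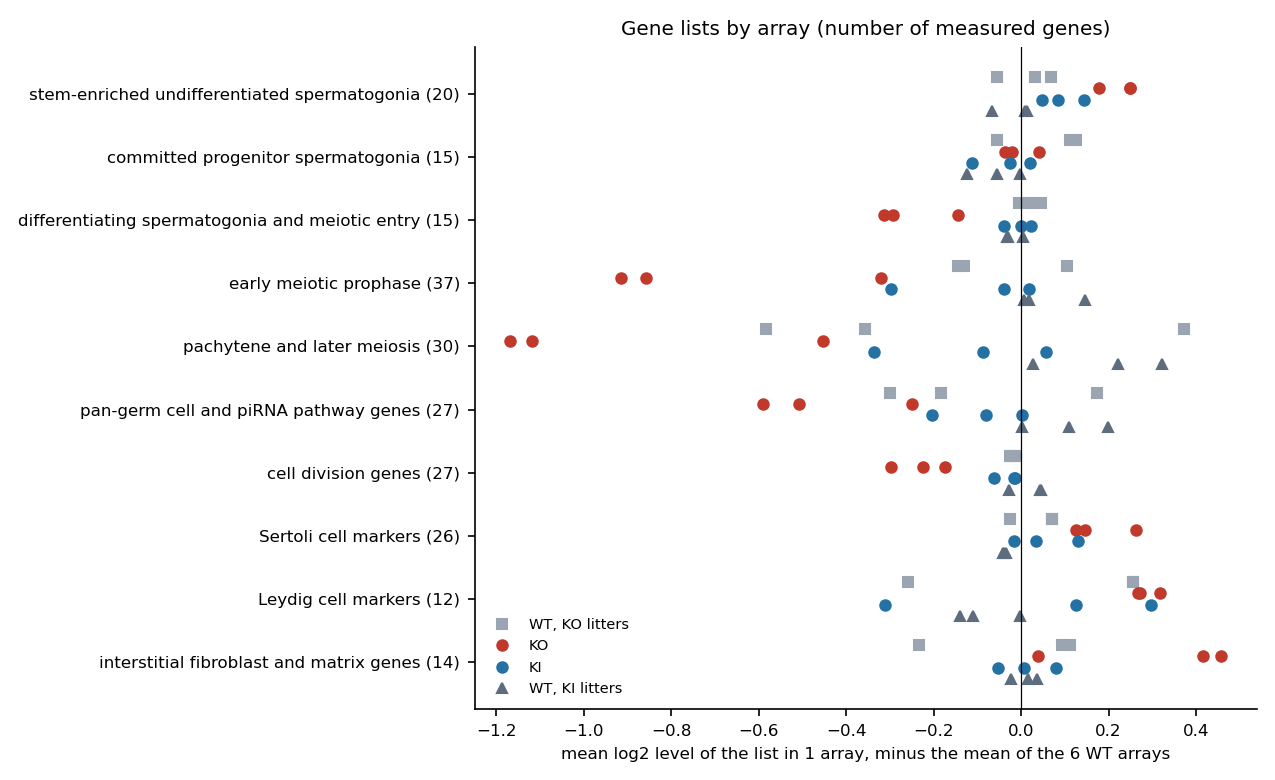
Mean log2 level of 10 gene lists in each array, minus the mean of the 6 WT arrays; squares and triangles are WT littermates of KO and of KI mice, red dots KO and blue dots KI testes, with the number of measured genes in brackets. Among meiotic lists KO 1 and KO 3 lie far to the left and KO 2 nearer to the KI arrays, and stem-enriched genes lie to the right in KO arrays.

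Genes of stem-enriched undifferentiated spermatogonia leaned the other way, though 9 of the list's 20 differences were positive. The KI arrays all lay below the KO arrays for 10 genes (50%, against 12.6% of all genes). They all lay above for 2 (10%, against 9.56%). Of 20 genes of that list, 0 were higher and 10 lower in KI at an unadjusted p below 0.05 (against 10.8% of all genes), with a median of -0.24 that was -0.25 without KO 2, -0.20 without KO 3, where 7 were lower and 1 higher, and -0.24 without the array labelled KI 1. The list mean was 6.76, 6.69 and 6.76 in KO, 6.65, 6.59 and 6.56 in KI and 6.44 to 6.58 in WT arrays, and the KI and KO arrays did not overlap. Gfra1, the receptor for GDNF, was 7.27, 7.20 and 7.33 in KO and 6.91, 6.85 and 6.80 in KI arrays, a difference of -0.42 (95% interval -0.59 to -0.25, limma adjusted p = 0.133). Its KI arrays lay between KO and WT (6.41 to 6.66), and it was 1 of the 57 genes. Epha2, an ephrin receptor found on stem cells, was 6.92, 6.64 and 6.63 in KO and 6.21, 6.25 and 5.98 in KI arrays, a difference of -0.58 (95% interval -0.81 to -0.36), with WT at 5.96 to 6.21. Ret, the coreceptor of GDNF, had a difference of -0.31 (95% interval -0.57 to -0.06), and its KI 1 array overlapped KO 2. Etv5, a target of GDNF and FGF signals, had -0.21 (95% interval -0.41 to -0.01), and Nanos2, a regulator of stem spermatogonia, was dim with -0.35. Zbtb16 and Mcam, the list's 2 genes of highest level, differed by 0.06 (95% interval -0.185 to 0.296) and -0.27 (95% interval -0.46 to -0.08). The groups overlapped for Zbtb16 and not for Mcam. None of the list's genes passed with limma over all genes.

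Committed progenitor spermatogonia, the list with Neurog3, showed no single direction, with 1 of 15 higher, 2 lower (13.3%, against 10.8% of all genes) and a median of -0.08. Cdh1, E-cadherin, was 6.92, 7.003 and 6.98 in KO and 6.56, 6.48 and 6.46 in KI arrays, a difference of -0.47 (95% interval -0.69 to -0.24). Sohlh1, a transcription factor of spermatogonia, had -0.31 (95% interval -0.51 to -0.10). Both lay apart between the groups, and Neurog3 was the only member higher at an unadjusted p below 0.05. Taf4b and Dmrt1, the list's 2 genes of highest level, differed by 0.16 (95% interval -0.03 to 0.36) and -0.02 (95% interval -0.20 to 0.15), with overlap. The SOX2 partners and pluripotency or neural progenitor genes, a list that tests what Sox2 is best known for, had a median of -0.03, with 2 of 19 higher (10.5%, against 7.16% of all genes) and 1 lower. Lin28b, an RNA-binding protein, differed by 0.32 (95% interval 0.06 to 0.57), and Pou5f1, which acts with Sox2 in pluripotent cells, by -0.12 (95% interval -0.33 to 0.10). Nanog was dim with 0.12 (95% interval -0.11 to 0.34). A difference that did not pass does not show equal levels.

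Signals to spermatogonia and somatic cell markers are read against all genes, of which 13318 of 22180 had a negative difference and 10.8% were lower at an unadjusted p below 0.05. Of 23 genes of the GDNF and FGF signals, 8 (34.8%) were lower and 1 higher at an unadjusted p below 0.05, with a median of -0.17. Gdnf, the Sertoli cell factor that maintains stem spermatogonia, was 6.12, 6.28 and 6.47 in KO and 5.91, 5.95 and 5.36 in KI arrays, a difference of -0.55 (95% interval -0.90 to -0.21). The groups did not overlap, and KI 3 was lowest. Kitl, the ligand of Kit, and Cxcl12 had differences of -0.30 and -0.48, and Fgfr3, an FGF receptor, was the member higher in KI, by 0.34. Of 26 Sertoli cell markers 9 (34.6%) were lower and 1 higher, with a median of -0.16. Their differences ran from -0.76 to 0.77, and 6 of them were positive. Amh, the anti-Müllerian hormone of immature Sertoli cells, was 9.16, 8.11 and 8.97 in KO and 8.36, 7.91 and 7.67 in KI arrays, a difference of -0.76 (95% interval -1.33 to -0.20), with KI 1 above KO 2. Rhox8, a homeobox gene of Sertoli cells and 1 of the 57, had -0.45 (95% interval -0.65 to -0.24) and no overlap. All 14 fibroblast and matrix genes had negative differences, with 4 (28.6%) lower at an unadjusted p below 0.05, and a median of -0.25. Their list mean was 9.05 in KO 2, within the KI range of 8.96 to 9.09, and 9.43 and 9.47 in KO 1 and KO 3. Across the KO arrays this list was low where meiotic lists were high, and its part in those results was not tested. Without KO 3 the lower counts were 3 of 23 for GDNF and FGF signals (median -0.10), 2 of 26 for Sertoli markers (median -0.089) and 3 of 14 for fibroblast genes (median -0.19), against 1434 of all 22180 genes. Without KO 2 they were 8 of 23 (median -0.19), 11 of 26 (median -0.22) and 10 of 14 (median -0.38), against 3098 of all genes, and 5 fibroblast genes then passed over all genes with limma at adjusted p below 0.05. Endothelial markers had 0 of 14 in either direction, with 3 lower without KO 2. Peritubular and smooth muscle markers had 0 of 15 higher and 3 lower, with 5 lower without KO 2 and 1 without KO 3. Macrophage and immune markers had 0 of 17 higher and 2 lower, with 4 lower without KO 2 and 0 without KO 3, and epididymis and efferent duct markers 0 of 15 higher and 2 lower, with 4 and 1. Their shares lower of 11.8% and 13.3% were near the 10.8% of all genes. Erythroid markers had 0 of 4 in either direction, and p53 targets and apoptosis genes 1 of 17 higher and 1 lower. Among olfactory receptor genes, which are mostly dim, 115 of 1105 were lower (10.4%, against 10.8% of all genes). Only 14 were higher (1.27%, against 7.16% of all genes), and 762 of the 1105 differences were negative. Without KO 3, 72 were lower and 27 higher. Their mean level was 3.61 in KO 3 and 3.35 to 3.48 in the other arrays.

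Leydig cell genes of steroid synthesis spread widely between arrays. Hsd3b1, an enzyme of steroid synthesis and 1 of the 57 genes, was 8.69, 8.26 and 7.996 in KO and 7.47, 7.54 and 7.29 in KI arrays, a difference of -0.88 (95% interval -1.26 to -0.50). The groups did not overlap. Hsd3b6, the related enzyme of adult-type Leydig cells, went the other way, with 5.23, 7.55 and 5.79 in KO and 8.78, 7.93 and 7.99 in KI arrays, a difference of 2.04 (95% interval 0.48 to 3.61). With each mutant taken against its own WT littermates this was 0.49, since WT littermates of KI exceeded those of KO by 1.56. Cyp17a1, the enzyme that makes androgen precursors, was 10.52, 10.47 and 10.69 in KO and 9.60, 7.11 and 9.80 in KI arrays, a difference of -1.72 (95% interval -3.38 to -0.07). In the within-litter form it was -0.65, and for Hsd3b1 it was -0.61. KI 2 was far below the other KI arrays for Cyp17a1, WT arrays ran from 7.56 to 10.23, and Star, the cholesterol carrier of the same cells, was also lowest in KI 2 at 7.39. Over the 12 Leydig markers 1 was higher and 3 (25.0%, against 10.8% of all genes) lower at an unadjusted p below 0.05, with a median of -0.20. Retinoic acid pathway genes had 5 of 21 higher (23.8%, against 7.16% of all genes; 2 without KO 3) and 2 lower, with Rbp4, a retinol carrier, at 0.30 and Cyp26b1, which breaks down retinoic acid, at -0.32.

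The 2 litter origins were set beside this with each mutant taken against its own WT littermates. The difference of these within-litter effects passed for 0 of 22180 genes with limma, with 1293 (5.83%) at an unadjusted p below 0.05. Neurog3 was higher in KI by 0.95 in this form, Ticrr by 0.57 and Tbx1 by 0.60, and Cyp2j6 had -0.98. The WT littermates of KI and of KO mice also differed in 0 genes, with 1174 at an unadjusted p below 0.05. For the early meiotic list the median was 0.45 in the within-litter form, with 8 of 37 genes at an unadjusted p below 0.05 in either direction. It was 0.30 for the pachytene list (3 of 30), -0.13 for the stem-enriched list (5 of 20) and 0.33 for the differentiating list (6 of 15). It was 0.14 for the germ line and piRNA list (0 of 27) and 0.16 for cell division genes (6 of 27). The median also turned sign for the committed progenitor list (-0.08 to 0.04) and the retinoic acid list (-0.03 to 0.17). The WT littermates of KI exceeded those of KO by a median of 0.30 for the pachytene list. This median was 0.24 for the germ line and piRNA list and 0.07 for the early meiotic list. These WT values point the same way as the KI minus KO difference of their list, and the part of litter origin in it was not tested. Fabp9 went from 2.84 to 1.62 and Sox3 from 0.38 to 0.41. No within-litter value here rests on more than 3 arrays a group.

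**Figure D5:**
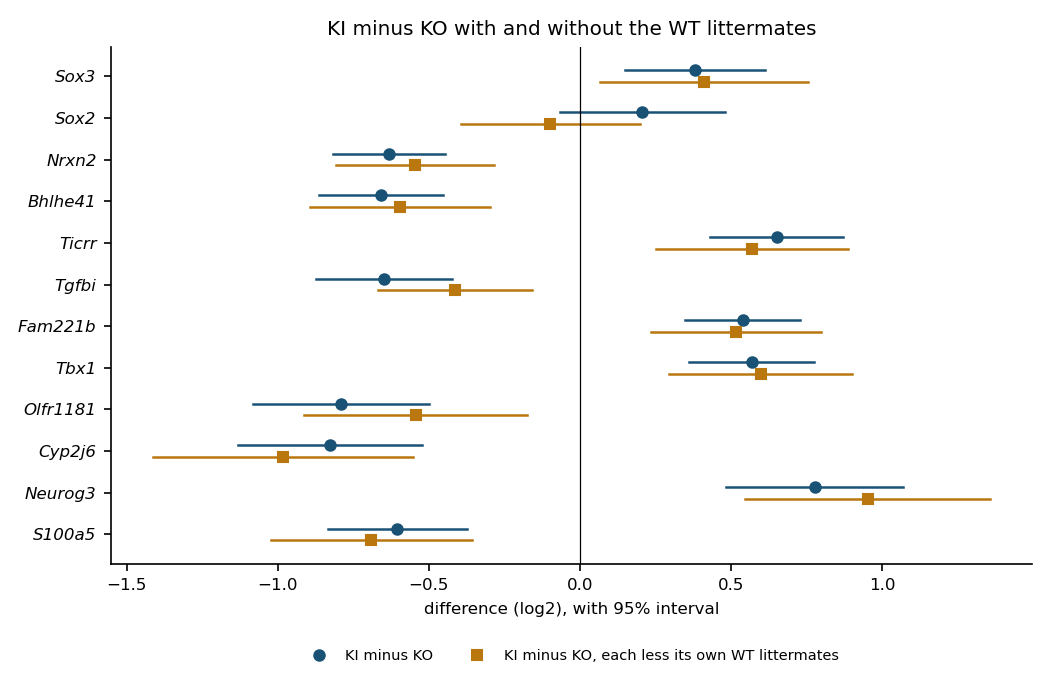
KI minus KO difference (log2, dots) and the same with each mutant taken against its own WT littermates (squares), with 95% intervals, for Sox3, Sox2 and the 10 genes of smallest p. The squares stay on the side of the dots except for Sox2, whose difference goes from 0.21 to -0.10.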

How the data were processed

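RNA of 12 whole testes was measured on Affymetrix whole-transcript arrays, and the samples were grouped by genotype and littermate labels. The deposited values were log2 levels of 41345 transcript clusters (0.915 to 13.93), and the submitters' processing notes name Partek 6.6, Affymetrix Expression Console and RMA without saying which made the values. Background correction and filters are not stated in the sources used here. Each gene with a single symbol (22180, of which 1082 had more than 1 cluster) was taken at the cluster of highest mean, and 21994 matched RefSeq GRCm38.p6 by Entrez number. Array medians over all clusters ran from 5.74 to 5.82. Arrays give no read depth, and 3 arrays a group limit the precision.

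KI and KO were compared with limma 3.58.1 in R 4.3.3 (lmFit and eBayes, two-sided, 3 genotypes in all 12 arrays, Benjamini-Hochberg over all genes, threshold 0.05), and the within-litter form in a fit of the 4 label groups. Exact permutation tests for Sox3, Sox2 and Sox1 went through all splits with numpy 2.4.6 under Python 3.11.15. Also loaded were pandas 2.3.3 and scipy 1.17.1, and figures used matplotlib 3.10.9. The scripts were tested on simulated data. Genes named by rule were Sox3, Sox2, Sox1, the 10 genes of smallest p (since none passed) and, per list, the 2 of highest level. Not all of those from the lists are given with values above. Any other gene was named after its values were known. The comparison and the 21 lists (426 entries, 394 measured) were chosen with earlier results of these data known. Alternatives were median centring, new quantile normalization, a level filter, mean of clusters, array weights, a variance trend, other array sets and each array left out.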

Additional observations from a re-analysis of the deposited data

Results flagged for a closer look

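In 3 of 54 named genes the highest or lowest of the 6 WT arrays stood beyond Dixon's limit, and chance flags about 1 in 20 such groups. Klf4 was lowest in WT 3 at 7.16, with the next at 7.31, Dmrt1 was highest in WT 4 at 9.75, with the next at 9.57, and Pcna was lowest in WT 3 at 9.89, with the next at 10.02. None of these genes differed between KI and KO testes with limma, and no explanation was tested.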

How the results depend on the processing

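The main count of 0 genes for KI against KO over 22180 genes was kept, by limma, under median centring, new quantile normalization, the mean of clusters, array weights, the 6 mutant arrays alone, the 4 label groups and the within-litter form. It was 57 (30 higher, 27 lower) among genes above the median level and 3 (1 higher, 2 lower) with a variance trend, and with 1 array left out it ran from 0 to 721 (higher from 0 to 342, lower from 0 to 379). The 57 became 132 with centring, 0 in the 6 mutant arrays alone, 164 in the 4 label groups, 0 among genes above the lower quartile of level, 90 above the upper quartile, and from 0 to 1637 with 1 array left out. The last set of alternatives was added after the data were seen. Deviations of same-numbered KI and KO arrays correlated with r = 0.139, 0.114 and -0.0347 over genes, so the numbers were not taken as pairs. The replicate block of the mutant numbers gave 0 genes, with 3411 at an unadjusted p below 0.05. By correlation KI 1 and KI 2 were nearest to their own KO numbers, and KI 3 was not.

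Direction turned for Sox2 to -0.10 in the within-litter form. In the same form it turned for Msi1 (0.036), Klf4 (0.042), Dmrt1 (0.039), Aldh1a1 (0.089), Casp8 (0.076), Cldn11 (0.0054), Clu (0.079), Scarb1 (0.097), Ermap (-0.0034) and Slc4a1 (0.20). With centring it turned for Msi1 (0.018), Dmrt1 (3e-05), Clu (0.0092) and Scarb1 (0.024), and with array weights for Scarb1 (0.015) and Ermap (-0.051). With 1 array left out the difference ran for Sox1 from -0.0499 to 0.15, for Msi1 from -0.062 to 0.029, for Klf4 from -0.23 to 0.13, for Dmrt1 from -0.067 to 0.029, for Clu from -0.051 to 0.026, for Scarb1 from -0.059 to 0.075, for Acta2 from -0.065 to 0.017, for Cdh5 from -0.33 to 0.044, for Mrc1 from -0.036 to 0.12 and for Ermap from -0.0803 to 0.16. The cause was not tested. The signal limits what can be read of dim genes such as Sox2, Olfr1181 and S100a5, where a small difference lies near background.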

Other observations

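KO 3 was the array highest in 10 of the 14 interferon-induced GTPases measured. Iigp1 was 8.36 in KO 3 and 5.66 and 5.10 in KO 1 and KO 2, against 5.75, 5.07 and 4.68 in the KI arrays. Gbp4 was 6.77 in KO 3 and 4.69 and 4.06 in the other KO arrays, against 4.13, 3.91 and 3.50 in KI. For both genes the KI and KO arrays overlapped. Irgm1 was 5.92, 5.77 and 6.78 in KO and 5.36, 5.41 and 5.32 in KI arrays, and Igtp was 6.14, 6.10 and 7.89 in KO and 6.01, 6.01 and 5.76 in KI arrays. Of the 14, only Irgm1 and Igtp had all KI arrays below all KO arrays, as 12.6% of all genes had. The dim Gbp6 had all KI arrays above all KO arrays, and the groups overlapped for the rest. On the second principal component of all genes KO 3 was at 0.75 and the other arrays between -0.35 and 0.29.

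Car7, a carbonic anhydrase, was 5.92, 5.94 and 5.55 in KO and 7.26, 6.72 and 6.90 in KI arrays, a difference of 1.15 (95% interval 0.67 to 1.63), the largest of the 57 genes. Mdc1, a mediator of the DNA damage response, was 8.99, 9.54 and 9.03 in KO and 9.88, 10.22 and 10.19 in KI arrays, a difference of 0.91. Erbb3, a receptor of the EGF receptor family, was 7.49, 7.30 and 7.64 in KO and 6.81, 6.40 and 6.77 in KI arrays, a difference of -0.82. With each mutant taken against its own WT littermates, the difference was 0.71 for Car7, 0.59 for Mdc1 and -0.66 for Erbb3. The WT littermates of KI exceeded those of KO by 0.44 for Car7 and 0.32 for Mdc1. These genes were chosen after their values were seen. Erdr1 was 7.95 in KI 3, against 9.76 and 10.85 in the other KI arrays, and 9.78 to 11.37 in WT arrays.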
